A study of Mus musculus with 12 samples.

Results

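The comparison set all 8 lines of Ba/F3 cells that grew on an ABL1 fusion against the 4 lines that grew on interleukin-3 (IL-3), and so used 12 of the 12 samples of the series. Ba/F3 is a mouse pro-B cell line whose growth depends on added IL-3, and a kinase oncogene can relieve it of that need. The 4 MSCV lines carried an empty retroviral vector and were cultured with 0.5 ng/ml murine IL-3. The 4 BCR-ABL1 lines and the 4 SFPQ-ABL1 lines expressed an ABL1 tyrosine kinase joined to BCR or to SFPQ, and their medium held no IL-3. The labels call the 4 lines of each group biologically independent, and all 12 were harvested while growing exponentially. Each fusion group was given equal weight, so a value for either fusion is the mean of both fusion groups against MSCV. Fusion and IL-3 always changed together, so the contributions of gaining the kinase and of losing the cytokine cannot be told apart here. Each group is a retroviral transfer into 1 parental cell line, and no source used here gives the expression of the introduced proteins.

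IL-3 binds a receptor made of the alpha chain (Il3ra) and the common beta chain (Csf2rb and, in mice, the close copy Csf2rb2). The receptor activates the kinase JAK2 and through it the transcription factor STAT5, the RAS-ERK cascade and PI3K-AKT. ABL1 fusions are constitutively active kinases and are known to drive STAT5, ERK and AKT signalling without a cytokine. STAT5 switches on feedback inhibitors such as Cish and Socs1, the kinase gene Pim2 and the survival gene Bcl2l1, and ERK switches on its own brakes of the DUSP, SPRED and SPRY families.

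Promoter sequence was examined for 2 motifs that belong to this biology, the palindromic STAT motif TTCNNNGAA and the C/EBP-ATF motif TGATGNAA, on both strands, in windows from 250 bases before to 50 bases after RefSeq start sites (GRCm38.p6). TTCNNNGAA was present in 2582 of 27025 genes with a promoter in the table (9.55%), and TGATGNAA in 1219 (4.51%). Of the 15 named genes that rose in all 8 fusion lines, described below, 9 had a promoter in the table, of which 2 (Cish and Slco1a5) held TTCNNNGAA and 1 held TGATGNAA. Of the 15 that fell in all 8, 11 were in the table, of which 1 held TTCNNNGAA and 2 held TGATGNAA. Among the 7 STAT5 target genes that rose 5 were in the table, and Cish alone held it. Of the 22 called genes of the amino acid response 19 were in the table, and 6 held TGATGNAA (31.6%; Aars, Asns, Gars, Nupr1, Slc7a11 and Trib3), as many as held TTCNNNGAA (31.6%). No test was made of these shares. The stretches below are 150 bases long and run 5′ to 3′ on the strand of the gene, with motif matches in capitals. Only promoters that hold a match are shown, so they say nothing about how often a match occurs. Cish and Slco1a5 are the 2 named genes above that rose in all 8 fusion lines and hold TTCNNNGAA. Asns, Slc7a11 and Trib3 are examples from the 6 amino acid response genes that hold TGATGNAA, and they rose mainly with BCR-ABL1.
Cish, chr9:107296539-107296688, plus strand: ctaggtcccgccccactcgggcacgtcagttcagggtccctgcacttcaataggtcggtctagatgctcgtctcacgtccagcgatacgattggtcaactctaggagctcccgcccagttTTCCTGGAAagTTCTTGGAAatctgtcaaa
Slco1a5, chr6:142278975-142279124, minus strand: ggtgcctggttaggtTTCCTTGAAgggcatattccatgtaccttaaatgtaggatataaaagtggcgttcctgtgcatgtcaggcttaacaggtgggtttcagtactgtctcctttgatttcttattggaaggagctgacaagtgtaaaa
Asns, chr6:7693180-7693329, minus strand: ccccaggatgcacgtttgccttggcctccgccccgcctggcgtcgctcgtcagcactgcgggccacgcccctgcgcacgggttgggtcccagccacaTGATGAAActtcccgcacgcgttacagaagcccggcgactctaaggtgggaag
Slc7a11, chr3:50443584-50443733, minus strand: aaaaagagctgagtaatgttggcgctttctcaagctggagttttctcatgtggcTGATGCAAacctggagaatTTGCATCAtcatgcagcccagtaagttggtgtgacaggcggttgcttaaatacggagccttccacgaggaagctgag
Trib3, chr2:152344031-152344180, minus strand: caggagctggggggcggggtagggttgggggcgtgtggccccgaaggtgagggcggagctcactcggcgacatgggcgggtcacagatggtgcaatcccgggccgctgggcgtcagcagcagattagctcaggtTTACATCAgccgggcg
The 2 matches of Cish begin at the annotated start site and 11 bases after it, and the match of Slco1a5 begins at -235 from its start site. A match is a description of the letters and not a measured site of binding.

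Gene totals were 59355018 to 80616227 counts per library, and gene levels are given in CPM, counts scaled to TMM-adjusted library size. The CPM of single exons below are exon counts over the gene total of the library, without TMM scaling, and cannot be set against gene levels. Mitochondrial genes held 1.56% to 2.34% of counts. An Abl1 exon in the part that both fusions hold (chr2:31796973-31797062, mm10) had 0.0454 to 0.0529 CPM in the MSCV lines, 9.23 to 20.8 in the BCR-ABL1 lines and 4.36 to 26.8 in the SFPQ-ABL1 lines, so every library went with its label. A more 5′ Abl1 exon (chr2:31778921-31779024) was high only in the BCR-ABL1 lines, at 1.93 to 3.86 CPM, against 0.119 to 0.303 with MSCV and 0.126 to 0.273 with SFPQ-ABL1. Summed over the gene, Abl1 had 81.6 to 106 CPM with MSCV and 104 to 134 in the 8 fusion lines (log2 fold change 0.29 ± 0.090 SE, adjusted p = 0.0422), a call lost in 12 alternatives. The labels do not say whether the fusion cDNAs are human or mouse, so their reads may be counted in part only, and these values are no measure of fusion expression. Of the B-lineage genes fixed as markers, Cd79a and Cd79b were clearly expressed, whereas 11 of 15, among them Pax5, Ebf1, Rag1 and Blnk, were too low to test and Il7r had no count in any library. In bulk RNA such as this, fewer cells of a type and less RNA per cell cannot be told apart.

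Part of the response was shared by the fusions and part was not. Of 17197 genes tested, 3232 differed between either fusion and MSCV (18.8%; edgeR quasi-likelihood test, Benjamini-Hochberg adjusted p under 0.05), 1568 of them higher (9.12%) and 1664 lower (9.68%). The same fit called 5522 genes for BCR-ABL1 alone against MSCV (32.1%) and 308 for SFPQ-ABL1 alone (1.79%; 140 higher and 168 lower, or 210 higher and 114 lower without normalization factors). The SFPQ-ABL1 count was 13 higher and 20 lower without MSCV line 3, and 535 and 596 with the DESeq2 Wald test. Both comparisons share the MSCV lines. The absolute change was larger with BCR-ABL1 for 2857 of the 3232 genes (88.4%), and for 140 (4.33%) the fusions moved to opposite sides of MSCV. The BCR-ABL1 values entered the choice of the 3232, and these shares are not given over all genes tested. SFPQ-ABL1 and BCR-ABL1 differed from each other in 1787 of the 3232 (55.3%), against 4471 of all genes tested (26.0%; 2268 higher and 2203 lower with SFPQ-ABL1, or 2841 and 1750 without normalization factors). When the 8 fusion lines were fitted as a single group, so that the difference between fusions counted as spread, 206 genes were higher and 290 lower. MSCV lines 3 and 4 moved the counts most: 896 genes were higher and 1076 lower without line 3, and 915 and 1020 without line 4. Genes near the threshold included Galnt7 (log2 -0.25 ± 0.081 SE) just inside, and Dbf4 (0.19 ± 0.061) and Adcy7 (-0.38 ± 0.12) just outside.

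A stricter reading of what the fusions shared asks that every fusion line lie on one side of every MSCV line. This held for 413 genes above MSCV (2.40% of those tested) and 493 below (2.87%), together 5.27%. Of these, 386 (2.24%) and 459 (2.67%) were also called, which made 845 shared genes, 26.1% of all called. SFPQ-ABL1 and BCR-ABL1 differed in 293 of the 845 (34.7%). The median log2 change of the 386 was 0.56 with BCR-ABL1 and 0.37 with SFPQ-ABL1, and that of the 459 was -0.79 and -0.46, values whose sign follows from how the genes were chosen. Without MSCV line 1 the number of genes with all fusion lines above was 948 and below 855, and without MSCV line 2 the number above was 625. The genes named next are the 15 that rose and the 15 that fell with the largest change in the fusion where it was smaller. All 30 were called with BCR-ABL1 and 17 with SFPQ-ABL1, and 11 differed between the fusions.

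Cish, Socs1 and Dusp4, which encode feedback inhibitors of cytokine and MAP kinase signalling, were among the shared rises. Cish (ENSMUSG00000032578, chr9:107296026-107302784), which encodes an SH2 protein that blocks STAT5 docking at cytokine receptors, had 36.9, 24.4, 31.96 and 30.9 CPM in MSCV lines 1 to 4. The BCR-ABL1 lines had 163, 203, 259.9 and 238 CPM and the SFPQ-ABL1 lines 136, 83.9, 218 and 274. The lowest fusion line, SFPQ-ABL1 line 2, was thus more than 2-fold above the highest MSCV line, and Cish rose 6.32-fold for either fusion (log2 2.66 ± 0.29 SE, adjusted p = 0.000223). Its change was 2.80 with BCR-ABL1 and 2.52 with SFPQ-ABL1, and the difference between fusions had a 95% interval of -0.90 to 0.34 on the log2 scale. Socs1 (ENSMUSG00000038037, chr16:10782240-10785536), which encodes an inhibitor of JAK kinases, had 9.05, 5.38, 4.26 and 3.70 CPM with MSCV, 10.8, 12.2, 20.6 and 15.2 with BCR-ABL1 and 17.95, 9.40, 23.8 and 24.01 with SFPQ-ABL1. Its groups did not overlap but came close, with 9.05 in MSCV line 1 and 9.40 in SFPQ-ABL1 line 2 (log2 1.57 ± 0.30 SE, adjusted p = 0.00442). Dusp4, which encodes a nuclear MAP kinase phosphatase, had 11.1, 3.91, 5.82 and 7.98 CPM with MSCV, 40.8, 60.5, 61.2 and 75.4 with BCR-ABL1 and 11.4, 31.2, 11.2 and 17.5 with SFPQ-ABL1. The BCR-ABL1 lines were all higher than the SFPQ-ABL1 lines, and the changes of 3.04 with BCR-ABL1 and 1.30 with SFPQ-ABL1 differed (adjusted p = 0.00379).

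Slco1a5, Bcl2a1a and Lcn2 had the largest folds of the 15 and were expressed at low levels with MSCV. Slco1a5, an organic anion transporter gene, had 0.255 to 1.63 CPM with MSCV, 5.203, 2.01, 4.98 and 49.0 with BCR-ABL1 and 42.1, 10.6, 25.4 and 49.4 with SFPQ-ABL1 (log2 4.90 ± 0.98 SE, adjusted p = 0.00523), with line 4 far above the other BCR-ABL1 lines. The survival gene Bcl2a1a had 0.113, 0.0672, 0.238 and 0.445 CPM with MSCV, 1.51, 5.25, 2.38 and 15.6 with BCR-ABL1 and 2.36, 0.520, 1.98 and 11.4 with SFPQ-ABL1 (log2 4.55 ± 0.99 SE, adjusted p = 0.00813). Both genes have near copies that can take up some of their reads, which leaves their levels uncertain. Lcn2, which encodes the siderophore-binding protein lipocalin-2, had 0.184 to 0.317 CPM with MSCV, 4.003 to 67.7 with BCR-ABL1 and 0.469 to 1.49 with SFPQ-ABL1, and its changes of 6.70 with BCR-ABL1 and 1.98 with SFPQ-ABL1 differed (adjusted p = 0.000896). Slfn2, a Schlafen family gene linked to lymphocyte quiescence, had 16.9, 2.90, 4.97 and 8.53 CPM with MSCV, 41.2, 75.5, 71.3 and 82.8 with BCR-ABL1 and 22.5, 67.8, 45.9 and 80.5 with SFPQ-ABL1. Its rise of 7.27-fold (log2 2.86 ± 0.47 SE, adjusted p = 0.00191) was 3.02 with BCR-ABL1 and 2.70 with SFPQ-ABL1, with a 95% interval of -1.33 to 0.68 for the difference.

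Further shared rises were seen in Odc1 and Atp13a3, which act in polyamine supply, in Esco2 and in the transcription factor genes Nfkb1 and Ikzf4. Odc1 (ENSMUSG00000011179, chr12:17544794-17551505), which encodes ornithine decarboxylase, the rate-limiting enzyme of polyamine synthesis, had 90.4, 84.5, 68.7 and 65.2 CPM with MSCV, 156, 153, 163 and 176 with BCR-ABL1 and 144, 142, 131 and 118 with SFPQ-ABL1 (log2 0.93 ± 0.10 SE, adjusted p = 0.000223). Atp13a3, a polyamine transporter gene, had 393, 208, 289 and 391.99 CPM with MSCV, 676, 770.4, 794 and 693 with BCR-ABL1 and 779, 561, 778 and 847 with SFPQ-ABL1. Its changes of 1.19 with BCR-ABL1 and 1.21 with SFPQ-ABL1 had an interval of -0.38 to 0.41 for their difference. Esco2, a cohesin acetyltransferase gene, rose from 62.2 ± 5.95 CPM (mean ± SD, n = 4 lines) to 111 ± 16.1 and 109 ± 11.6. Nfkb1, which encodes the NF-kB subunit p105/p50, had 161, 106, 125 and 111 CPM with MSCV, 197, 217, 232 and 225 with BCR-ABL1 and 177, 199, 218 and 232 with SFPQ-ABL1. MSCV line 1 and SFPQ-ABL1 line 1 were its nearest lines, and the rise was 1.69-fold (log2 0.76 ± 0.12 SE, adjusted p = 0.00124). Repin1, a zinc finger gene, had a log2 rise of 1.20 with BCR-ABL1 and 1.38 with SFPQ-ABL1, and Cc2d2a, a cilium gene at 5.26 to 7.51 CPM with MSCV, one of 0.89 with BCR-ABL1 and 0.75 with SFPQ-ABL1. Ikzf4, which encodes the Ikaros family factor Eos, rose more with SFPQ-ABL1 (1.43) than with BCR-ABL1 (0.85; adjusted p of the difference 0.0380, lost on leaving out lines 1, 2 or 4 of BCR-ABL1 or lines 1, 3 or 4 of SFPQ-ABL1), from 3.45 to 5.49 CPM with MSCV to 5.96 to 9.38 and 9.03 to 14.4. Hemk1, a methyltransferase gene, rose more with BCR-ABL1 (1.94 with BCR-ABL1 and 0.86 with SFPQ-ABL1; adjusted p 0.00402).

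**Figure D1:**
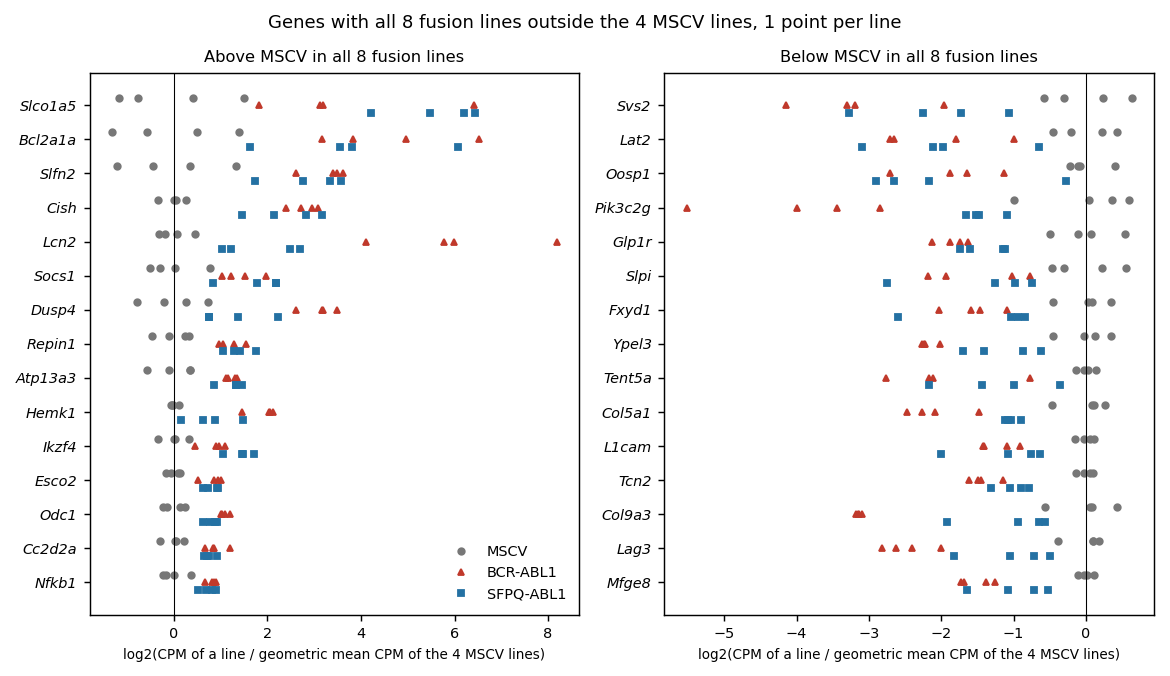
Level of each line relative to the geometric mean of the MSCV lines, on a log2 axis, for the 15 genes above MSCV (left) and the 15 below it (right) in all 8 fusion lines. Each point is a line. Lcn2 and Pik3c2g have BCR-ABL1 lines far beyond the SFPQ-ABL1 lines, and for Odc1, Nfkb1, Esco2 and Tcn2 the 8 fusion lines lie close together.

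Tcn2, the collagen genes Col5a1 and Col9a3 and Lag3 fell in all 8 fusion lines, and each fell further with BCR-ABL1. Tcn2 (ENSMUSG00000020432, chr11:3917192-3932159), which encodes the vitamin B12 carrier transcobalamin, had 149, 153, 130.1 and 141 CPM with MSCV, 50.9, 64.4, 46.5 and 52.4 with BCR-ABL1 and 57.4, 76.5, 68.7 and 82.7 with SFPQ-ABL1. It fell 2.31-fold (log2 -1.21 ± 0.10 SE, adjusted p = 0.000144), by -1.42 with BCR-ABL1 and -1.003 with SFPQ-ABL1 (difference 0.41, adjusted p = 0.0257). That difference was not called without lines 1, 3 or 4 of BCR-ABL1 or lines 2 or 4 of SFPQ-ABL1. Col5a1, a fibrillar collagen gene, had 696, 1037, 1159.6 and 1025 CPM with MSCV, 344, 173, 226 and 199.6 with BCR-ABL1 and 457, 470.2, 518 and 442 with SFPQ-ABL1. Its SFPQ-ABL1 lines lay between the other groups without overlap (log2 -2.06 with BCR-ABL1 and -1.05 with SFPQ-ABL1; adjusted p of the difference 0.00298). Col9a3 and Lag3, which encodes an inhibitory receptor, showed the same order of group medians, with 22.3 to 44.3, 8.72 to 22.3 and 3.66 to 3.87 CPM in MSCV, SFPQ-ABL1 and BCR-ABL1 lines for Col9a3 and 17.01 to 25.4, 6.30 to 15.8 and 3.16 to 5.55 for Lag3. The calls of Lcn2, Pik3c2g, Tent5a, Col9a3 and Lag3 were lost with the 8 fusion lines as a single group, and that of Lcn2 also with limma-voom.

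For Glp1r, L1cam and Lat2 a difference between the fusions was not called, whereas Ypel3 and Pik3c2g fell further with BCR-ABL1. Glp1r, the glucagon-like peptide-1 receptor gene, had 4.88, 7.61, 3.73 and 5.49 CPM with MSCV, 1.20, 1.58, 1.43 and 1.70 with BCR-ABL1 and 1.73, 2.43, 1.57 and 2.37 with SFPQ-ABL1 (log2 -1.65 ± 0.19 SE, adjusted p = 0.000324; difference between fusions -0.052 to 0.96). L1cam, an adhesion molecule gene, fell from 66.4 to 80.3 CPM to 27.5 to 39.3 and 18.4 to 47.7 (log2 -1.20 with BCR-ABL1 and -1.03 with SFPQ-ABL1). Lat2, which encodes an adaptor downstream of B cell and Fc receptors, had 59.5, 49.97, 92.6 and 80.1 CPM with MSCV, 10.5, 19.8, 10.9 and 34.3 with BCR-ABL1 and 7.998, 17.3, 43.8 and 15.9 with SFPQ-ABL1, with a wide interval of -0.84 to 1.19 for the difference. Mfge8, which encodes a bridging protein for the uptake of dying cells, fell from 78.8 ± 5.08 CPM to 27.8 ± 4.48 with BCR-ABL1 and 41.2 ± 12.8 with SFPQ-ABL1 (adjusted p of the difference 0.0452). That difference was not called in 12 alternatives, among them limma-voom and leaving out any 1 MSCV line. Ypel3, a Yippee family gene, had 28.7, 43.0, 50.2 and 38.5 CPM with MSCV, 9.73, 8.35, 8.37 and 8.15 with BCR-ABL1 and 12.1, 14.9, 25.6 and 21.4 with SFPQ-ABL1, and fell further with BCR-ABL1 (adjusted p of the difference 0.00322). Pik3c2g, a class II PI3K gene, fell from 643 to 1942 CPM to 28.0 to 179 with BCR-ABL1 and 407 to 606 with SFPQ-ABL1 (0.00333). Svs2, Slpi, Oosp1, Fxyd1 and Tent5a completed the 15, with log2 changes for either fusion of -2.48, -1.36, -1.68, -1.39 and -1.43. SFPQ-ABL1 line 2 stayed nearest to MSCV for Oosp1 (145 CPM against 151 in the lowest MSCV line) and Tent5a (181 against 212).

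Several STAT5 target genes rose, and several genes of the IL-3 receptor and its kinases fell. Of 14 STAT5 targets tested 7 rose (50%, against 9.12% of all genes), or 4 with the 8 fusion lines as a single group, with a median log2 change of 0.65 for either fusion (1.25 with BCR-ABL1 and 0.21 with SFPQ-ABL1) against -0.013 over all genes tested. Cish and Socs1 rose in all 8 lines, as given above. Pim2, a survival kinase gene, had 13.8, 17.7, 13.8 and 14.2 CPM with MSCV, 118, 288, 217 and 201 with BCR-ABL1 and 16.4, 49.4, 43.2 and 77.6 with SFPQ-ABL1, where line 1 remained within the MSCV range. Its log2 change was 3.79 with BCR-ABL1 and 1.65 with SFPQ-ABL1 and differed between the fusions (adjusted p = 0.00136). Bcl2l1, the gene of BCL-XL, which protects from apoptosis, had 48.2, 35.8, 34.5 and 41.1 CPM with MSCV and 124, 93.5, 119 and 137 with BCR-ABL1, and 46.2, 57.5, 50.3 and 55.1 with SFPQ-ABL1. Cyclin D2, Ccnd2, went from 136 to 169 CPM to 340.2 to 373 with BCR-ABL1 and was at 152 to 193 with SFPQ-ABL1, so for both genes the call for either fusion (0.98 and 0.70) came with SFPQ-ABL1 values of 0.39 and 0.15 that missed the threshold. The IL-2 receptor gene Il2ra and the cytokine gene Osm, also called, are named after their values were seen. Il2ra had 5.51 to 17.7 CPM with MSCV, 63.4, 433, 173 and 168 with BCR-ABL1 and 9.20, 92.6, 47.2 and 271 with SFPQ-ABL1, a spread of more than 20-fold among the SFPQ-ABL1 lines. Myc, Pim1 and Socs2 were among the 7 that missed the threshold, with log2 values of -0.25, -0.17 and 0.020.

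Of the 15 genes of the IL-3 receptor, JAK kinases and STAT factors, 6 fell (40%, against 9.68% of all genes), or 1 with the fusion lines as a single group, with a median log2 change of -0.31. Il3ra (ENSMUSG00000068758, chr14:14346275-14356011), the IL-3-specific receptor chain, had 79.2, 92.2, 85.6 and 84.1 CPM with MSCV, 46.6, 38.1, 46.9 and 46.3 with BCR-ABL1 and 52.8, 57.3, 61.2 and 58.7 with SFPQ-ABL1. The 3 groups did not overlap, and Il3ra fell 1.69-fold for either fusion (log2 -0.75 ± 0.074 SE, adjusted p = 0.000164), further with BCR-ABL1 (difference 0.37, adjusted p = 0.00838). Stat5b, one of the STAT5 genes, had 157, 156, 176 and 183 CPM with MSCV, 119.6, 116, 112 and 94.2 with BCR-ABL1 and 131, 148, 149 and 151 with SFPQ-ABL1 (log2 -0.41 ± 0.080 SE, adjusted p = 0.00449). All 8 fusion lines were lower than the MSCV lines, the SFPQ-ABL1 lines narrowly so, and the fall of -0.22 with SFPQ-ABL1 alone missed the threshold (adjusted p = 0.238). Tyk2 fell as well (log2 -0.36 ± 0.079 SE, adjusted p = 0.00875). Jak2, the kinase of the IL-3 receptor, had 151, 396, 189 and 174 CPM with MSCV, 113, 122, 105 and 104 with BCR-ABL1 and 132, 128, 183 and 190.0 with SFPQ-ABL1 (-0.78 ± 0.22 SE, adjusted p = 0.0246). MSCV line 2 was more than 2-fold above the other MSCV lines, and without it the value was -0.36 (adjusted p = 0.0736) and no longer called. Stat3 and Csf2rb2 were the others (named after their values were seen). Csf2rb2 had 763 to 1874 CPM with MSCV and 398 to 965 in the fusion lines, its groups overlapped, and its reads may be shared with its near copy Csf2rb. Csf2rb itself had a log2 change of -0.73 and was not called (adjusted p = 0.0597).

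**Figure D2:**
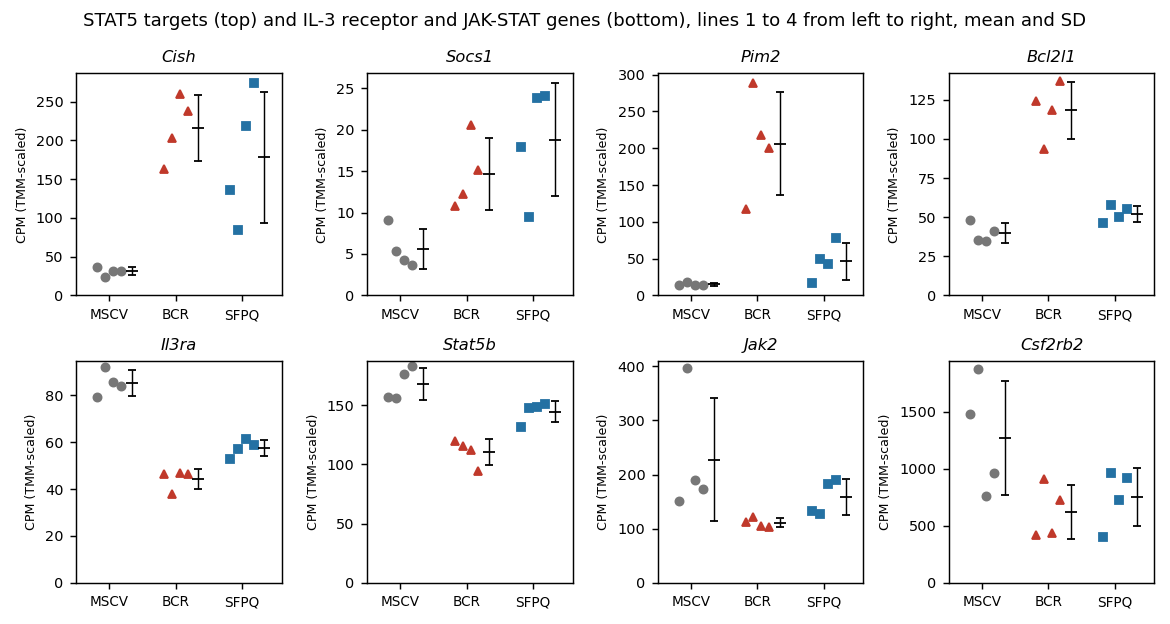
TMM-scaled CPM per line for 4 STAT5 target genes (top) and 4 genes of the IL-3 receptor and JAK-STAT pathway (bottom), with axes from 0 and the mean and SD of 4 lines beside each group. Cish and Socs1 are above MSCV in all 8 fusion lines, Pim2 and Bcl2l1 mainly in the BCR-ABL1 lines, and Il3ra and Stat5b are below MSCV in all 8.

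Of 13 tested genes that ERK signalling switches on 8 rose (61.5%, against 9.12% of all genes), or 3 with the fusion lines as a single group. Their median was 1.31 with BCR-ABL1 and 0.46 with SFPQ-ABL1, and 7 differed between the fusions, against 26.0% of all genes. With SFPQ-ABL1 alone, edgeR and limma-voom called 0, DESeq2 called 3 higher, and edgeR had 6 higher at an unadjusted p under 0.05. Over all genes edgeR called 1.79% for SFPQ-ABL1 alone. Spred1, a brake on RAS, was the only member besides Dusp4 with all fusion lines above MSCV, at 76.8, 65.9, 66.3 and 67.3 CPM with MSCV, 156, 185.8, 165 and 176 with BCR-ABL1 and 90.2, 122, 81.6 and 95.3 with SFPQ-ABL1 (log2 0.90 ± 0.10 SE, adjusted p = 0.000324). Spred2 followed with 1.07 with BCR-ABL1 and 0.48 with SFPQ-ABL1. Fosl1, an AP-1 factor gene, was low throughout, at 0.200 to 0.225 CPM with MSCV, 1.04 to 1.55 with BCR-ABL1 and 0.146 to 0.520 with SFPQ-ABL1. In the phosphatase gene Dusp6 (named after its values were seen) SFPQ-ABL1 line 2 had 125 CPM and the other SFPQ-ABL1 lines 34.4 to 47.7, against 34.2 to 56.6 with MSCV and 182 to 314 with BCR-ABL1. The same line was the highest of its group for Etv5 (52.4 CPM, the others 4.04 to 9.81), for Dusp4 and for Spred1. Immediate early genes did not move together. Of 17 tested 2 rose (11.8%, against 9.12% of all genes), or 0 with the fusion lines as a single group. These were Jun at 2.07 with BCR-ABL1 and 0.49 with SFPQ-ABL1, and Fosl2 at 1.63 and -0.002. The fusions differed in 13, against 26.0% of all genes, and the medians were 0.72 with BCR-ABL1 and -0.60 with SFPQ-ABL1. The call of Fosl2 was lost on leaving out MSCV line 1 (0.69 (adjusted p = 0.0541)) or line 4 (0.81 (adjusted p = 0.0553)).

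Of 13 PI3K and AKT genes 2 rose and 2 fell (15.4% each, against 9.12% and 9.68% of all genes). Pik3ip1, which encodes an inhibitor of PI3K, had 20.98, 22.2, 33.2 and 33.8 CPM with MSCV, 8.69, 8.47, 6.04 and 10.2 with BCR-ABL1 and 8.86, 11.2, 18.8 and 20.03 with SFPQ-ABL1 (log2 -1.31 ± 0.22 SE, adjusted p = 0.00195). Inpp5d, which encodes the lipid phosphatase SHIP1, had 218, 225, 240.0 and 250.01 CPM with MSCV, 124, 158, 135 and 145 with BCR-ABL1 and 144, 208, 186.02 and 179.7 with SFPQ-ABL1 (log2 -0.55 ± 0.096 SE, adjusted p = 0.00255). Pik3ip1 and Inpp5d were lower in all 8 fusion lines, and the catalytic subunit genes Pik3cg (0.82) and Pik3cb (0.50) were called higher. The median of the 13 was 0.0025, and PI3K activity was not tested. With the fusion lines as a single group 0 rose and 2 fell. SFPQ-ABL1 alone gave 1 higher and 0 lower, against 0.814% and 0.977% of all genes. The call of Pik3cb, whose fusion lines overlapped MSCV, was lost when any single line other than MSCV line 4, BCR-ABL1 line 2 or SFPQ-ABL1 line 2 was left out. AKT phosphorylation keeps FOXO factors out of the nucleus, and AKT activity was not tested. Of 11 FOXO-activated genes 3 fell (27.3%, against 9.68% of all genes), or 0 with the fusion lines as a single group. The FOXO list had a median of -0.0125 with BCR-ABL1, where 1 member was called higher and 3 lower (15.8% and 16.3% of all genes). With SFPQ-ABL1 alone edgeR called 0 (1.79% of all genes) and DESeq2 called 3 lower. The 3 that fell for either fusion were Sesn1 (44.2 to 49.98 CPM with MSCV, 16.1 to 24.3 with BCR-ABL1, 30.2 to 41.5 with SFPQ-ABL1, log2 -0.84 ± 0.10 SE, adjusted p = 0.000388), Txnip (-0.79, adjusted p = 0.0246) and the cell cycle inhibitor gene Cdkn1b (-0.49, 0.0300). Without MSCV line 3 or line 4, Sesn1 was the 1 still called. Of 7 pro-survival genes 4 rose (57.1%, against 9.12% of all genes), namely Bcl2l1 and the near-identical Bcl2a1a, Bcl2a1b (1.65) and Bcl2a1d (2.63). The pro-survival count was 2 when any single MSCV line was left out and 1 with the fusion lines as a single group. Bcl2 and Mcl1 had log2 values of 0.24 and -0.11 and were not called. Of 7 pro-death genes Bmf fell, from 5.89 to 11.3 CPM to 4.04 to 4.39 and 1.09 to 5.76 (log2 -1.06 ± 0.31 SE, adjusted p = 0.0303), a call lost on leaving out MSCV line 3 (-1.04 (adjusted p = 0.0727)), MSCV line 4 (-0.83 (adjusted p = 0.117)) or the third BCR-ABL1 line (-1.06 (adjusted p = 0.0505)). The pro-death count of 1 (14.3%, against 9.68% of all genes) was 2 without BCR-ABL1 line 4 or MSCV line 2. It was 0 with the fusion lines as a single group.

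Of 21 adaptors, Src kinases and brakes of ABL signalling 5 rose and 2 fell (23.8% and 9.52%, against 9.12% and 9.68% of all genes), and with the fusion lines as a single group 0 rose and 0 fell. The fusions differed in 11, against 26.0% of all genes, and all 4 named here were among them. Ptpn6, which encodes the phosphatase SHP-1, had 342 to 544 CPM with MSCV, 92.8 to 134 with BCR-ABL1 and 256 to 455 with SFPQ-ABL1. Rin1, an effector of RAS that binds ABL kinases, had 4.44 to 6.02, 15.8 to 26.7 and 4.52 to 6.30 CPM, and the adaptor gene Dok2 108 to 127, 185 to 269 and 112 to 139. Dok3 fell to 32.1 to 45.3 CPM with BCR-ABL1 and was at 38.6 to 69.8 with SFPQ-ABL1, against 64.4 to 83.5 with MSCV. The mean of both fusions was thus called for Rin1 (0.95) although SFPQ-ABL1 had a log2 value of -0.083. Of 14 NF-kB genes 3 rose (21.4%, against 9.12% of all genes), or 1 with the fusion lines as a single group. Nfkb1 rose in all 8 lines, and Nfkbiz and Relb had 1.72 and 2.75 under BCR-ABL1 and 0.052 and 0.46 under SFPQ-ABL1. The 5 higher members of the ABL list were 3 on leaving out any 1 of MSCV lines 1 to 3 or line 4 of either fusion, and the NF-kB count was 5 without BCR-ABL1 line 1.

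Genes of the amino acid response, which the factor ATF4 activates, gave the highest share of rises of any list. Every tested member differed between the fusions, against 26.0% of all genes. Of 25 tested 21 rose for either fusion (84%, against 9.12% of all genes). Psph, a gene of serine synthesis singled out after the values were known, was the 1 that fell. The median was 1.36 with BCR-ABL1 and 0.25 with SFPQ-ABL1. For SFPQ-ABL1 alone edgeR and limma-voom called 0 of 25, DESeq2 called 1, and edgeR had 7 higher and 2 lower at an unadjusted p under 0.05. The edgeR share for SFPQ-ABL1 alone over all genes was 1.79%. With the 8 fusion lines as a single group 1 of the 25 rose. Asns, asparagine synthetase, had 124, 53.01, 101.1 and 76.3 CPM with MSCV, 349, 406, 413 and 377 with BCR-ABL1 and 101.5, 96.0, 115 and 134 with SFPQ-ABL1. Slc7a11, the cystine transporter gene whose promoter with 2 TGATGNAA matches is shown above, had 12.3, 6.76, 9.61 and 7.90 CPM with MSCV, 33.6, 46.4, 37.8 and 40.0 with BCR-ABL1 and 13.7, 10.7, 12.6 and 16.8 with SFPQ-ABL1. In both genes MSCV line 1 was the highest MSCV line and lay within or near the SFPQ-ABL1 range, and all BCR-ABL1 lines were more than 2-fold above it. The tRNA synthetase genes Aars and Nars rose by 1.79 and 1.52 on the log2 scale with BCR-ABL1, and had 0.40 and 0.29 with SFPQ-ABL1, and Trib3, a pseudokinase gene, had 3.69 and 0.41. Ribosome biogenesis genes were higher with both fusions in median, 0.61 with BCR-ABL1 and 0.35 with SFPQ-ABL1. Of 21 tested 10 rose (47.6%, against 9.12% of all genes), or 1 with the fusion lines as a single group. With SFPQ-ABL1 alone edgeR (1.79% of all genes) and limma-voom called 0, DESeq2 called 1, and edgeR had 8 higher at an unadjusted p under 0.05. Nucleolin, Ncl, had 1079, 920.0, 850.0 and 911 CPM with MSCV, 1508, 1489, 1666 and 1678 with BCR-ABL1 and 1336, 1332, 1014 and 1073 with SFPQ-ABL1. Dkc1, which encodes the pseudouridine synthase dyskerin, had 204, 131, 125 and 123 CPM with MSCV, 255, 207, 241 and 231 with BCR-ABL1 and 271, 202, 203 and 195 with SFPQ-ABL1, and its changes of 0.68 with BCR-ABL1 and 0.58 with SFPQ-ABL1 had an interval of -0.45 to 0.25 for the difference. In both genes MSCV line 1 was the highest MSCV line and overlapped the SFPQ-ABL1 lines. The count of 10 was 17 without MSCV line 1, 5 without MSCV line 2 and 4 without MSCV line 3 or line 4, and 6 without BCR-ABL1 line 4 and SFPQ-ABL1 line 2 together. Ddx21 (0.78) and Nop58 (0.67) were the other members named by rule.

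Of 20 glycolysis and hypoxia genes and of 20 oxidative phosphorylation genes, 0 were called in either direction for either fusion by edgeR, DESeq2 or limma-voom. At an unadjusted p under 0.05 edgeR had 1 higher and 2 lower of the first and 1 higher and 1 lower of the second. With the replicate block 2 were called higher and 2 lower of the first, and 1 and 1 of the second. BCR-ABL1 alone against MSCV gave 2 higher and 1 lower of the first and 1 lower of the second. Over all genes, edgeR called 18.8% for either fusion, and 15.8% higher and 16.3% lower for BCR-ABL1 alone. Of 21 cholesterol genes 6 fell (28.6%, against 9.68% of all genes), or 0 with the fusion lines as a single group. The fusions differed in 16, against 26.0% of all genes. The synthesis genes Fdps and Dhcr7, the sterol sensor gene Insig1 and the regulator gene Srebf1 changed by -1.16, -1.12, -1.21 and -0.81 with BCR-ABL1 and had 0.11, 0.13, 0.015 and 0.007 with SFPQ-ABL1. Of 18 p53 targets 3 rose (16.7%) and 1 fell (5.56%), against 9.12% and 9.68% of all genes. With the fusion lines as a single group 0 rose and 0 fell. The fusions differed in 14 of the 18, against 26.0% of all genes. Sesn2 and Eda2r had 1.36 and 2.26 with BCR-ABL1 against 0.12 and -0.17 with SFPQ-ABL1, and Aen 1.29 against 0.31. Eda2r was not called with the fusion lines as a single group, nor on leaving out lines 3 or 4 of either fusion or MSCV lines 1, 2 or 4. Sesn1, on this list as well, was the 1 that fell.

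Of 14 genes of G1 control 3 rose and 3 fell (21.4% each, against 9.12% and 9.68% of all genes). Ccnd2 rose with BCR-ABL1 as above, and Rbl1, a retinoblastoma family gene, was above MSCV in all 8 lines but by little, with 63.9 to 82.2 CPM in the MSCV lines and 82.7 to 111 in the fusion lines (0.31 ± 0.078 SE, adjusted p = 0.0152). Cdkn2c and Rbl2 fell (-0.38 and -0.35), calls that were lost, with Cdkn1b, without MSCV line 3 or line 4. Higher members numbered 5 without SFPQ-ABL1 line 1. The third that rose was Cdk4 (0.29, named after its values were seen). Of 19 S phase genes 3 rose (15.8%, against 9.12% of all genes). Rrm2, which encodes a ribonucleotide reductase subunit, had 1.11 with BCR-ABL1 and 0.096 with SFPQ-ABL1. Ccne2 had 0.72 with BCR-ABL1 and 0.42 with SFPQ-ABL1, and Cdc45 0.21 with BCR-ABL1 and 0.29 with SFPQ-ABL1. Of these, Rrm2 kept its call without MSCV line 3. The call of Cdc45 was lost in 14 alternatives, among them the replicate block, no filter on low counts and leaving out any line other than BCR-ABL1 line 2 or SFPQ-ABL1 line 4. Of 19 genes of G2 and mitosis 4 fell (21.1%, against 9.68% of all genes). They were Ccnb2 (-0.49 ± 0.098 SE, adjusted p = 0.00515), Cdc20 (-0.31), Cenpf (-0.35) and Cdc25c (-0.35). Cenpf and Cdc25c both lost their calls on leaving out MSCV line 3, MSCV line 4, BCR-ABL1 line 3 or SFPQ-ABL1 lines 1 or 3. All 4 differed between the fusions, with SFPQ-ABL1 values of -0.31, -0.11, -0.052 and -0.14. With the fusion lines as a single group 0 members of the G1, S phase and G2 lists were called.

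Of 20 interferon-regulated genes 9 fell (45%), 1 rose (5%) and 10 were not called, against 9.68% and 9.12% of all genes, and 5 fell with the fusion lines as a single group. Of the 9, 6 were below MSCV in all 8 fusion lines, which held for 27.6% of all genes called lower and 2.87% of all genes tested. B2m, the light chain of MHC class I, had 362, 354, 304 and 295 CPM with MSCV, 210.1, 250.1, 179 and 174 with BCR-ABL1 and 189.6, 219, 220.0 and 199 with SFPQ-ABL1 (log2 -0.68 ± 0.10 SE, adjusted p = 0.00109). Its fall was -0.69 with BCR-ABL1 and -0.67 with SFPQ-ABL1, with an interval of -0.24 to 0.29 for the difference, and it passed the test with each fusion alone (adjusted p = 0.000975 and 0.0205). The peptide transporter gene Tap1 had 88.7, 95.7, 115 and 103 CPM with MSCV, 60.7, 52.4, 49.6 and 46.9 with BCR-ABL1 and 50.9, 68.5, 85.1 and 69.4 with SFPQ-ABL1. The immunoproteasome genes Psmb8 and Psmb9 fell 1.71-fold and 1.66-fold, further with BCR-ABL1 (log2 -1.10 and -1.04) than with SFPQ-ABL1 (-0.45 and -0.42; adjusted p of the differences 0.00232 and 0.00222). Irf7 and Oas1a, named after their values were seen, were the other 2 below MSCV in all lines, at 8.02 to 12.6 CPM with MSCV and 3.98 to 7.17 in the fusion lines for Irf7 and 19.7 to 29.5 and 12.4 to 19.3 for Oas1a. The 1 that rose was Slfn2.

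Of 15 annexin and S100 genes, which encode calcium-binding proteins, 6 fell (40%, against 9.68% of all genes), or 3 with the fusion lines as a single group. The 1 that rose (6.67%, against 9.12% of all genes) was Anxa5 (1.02, named after its values were seen). The count of higher members was 0 without MSCV line 1 or line 3 and 2 without SFPQ-ABL1 line 2. S100a10, the partner of annexin A2, had 249.5, 333, 224 and 224 CPM with MSCV, 138, 166, 127 and 109 with BCR-ABL1 and 106, 202, 133 and 125 with SFPQ-ABL1 (-0.90 ± 0.17 SE, adjusted p = 0.00342). S100a11 had 33.3, 42.0, 31.9 and 31.6 CPM with MSCV, 17.8, 24.2, 19.7 and 18.02 with BCR-ABL1 and 18.996, 21.2, 22.8 and 18.1 with SFPQ-ABL1 (-0.79 ± 0.11 SE, adjusted p = 0.000663), and its falls of -0.80 with BCR-ABL1 and -0.78 with SFPQ-ABL1 had an interval of -0.25 to 0.31 for their difference. S100a13 was also below MSCV in all 8 lines (-0.82), and S100a1 fell with overlap (-0.65). In S100a10 and S100a11 MSCV line 2 was the highest line. Of 9 genes of actin severing and capping 4 fell (44.4%) and 1 rose (11.1%), against 9.68% and 9.12% of all genes. With the fusion lines as a single group 0 fell. Gelsolin, Gsn, had 439.9 to 585 CPM with MSCV and 134 to 382 in the fusion lines. Its fall was larger under SFPQ-ABL1 (-0.52 with BCR-ABL1 and -1.13 with SFPQ-ABL1). Scin, Flii and Avil had -3.70, -0.57 and 5.74 with BCR-ABL1 against -0.23, -0.17 and 1.04 with SFPQ-ABL1, and the fourth that fell was Tmsb4x (-0.35, named after its values were seen).

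Of 17 adhesion and homing genes 7 fell (41.2%) and 3 rose (17.6%), against 9.68% and 9.12% of all genes. The 7 were 4 without MSCV line 4 and 2 with the fusion lines as a single group. The 3 were 0 without MSCV lines 2, 3 or 4 or SFPQ-ABL1 line 3, and 1 without MSCV line 1, lines 1 or 3 of BCR-ABL1 or lines 1 or 4 of SFPQ-ABL1. Selplg, which encodes the selectin ligand PSGL-1, had 75.4, 98.6, 80.3 and 71.0 CPM with MSCV, 32.7, 27.2, 25.9 and 20.99 with BCR-ABL1 and 32.03, 51.1, 50.7 and 46.3 with SFPQ-ABL1, fell 2.35-fold (-1.23 ± 0.14 SE, adjusted p = 0.000284) and was the only member below MSCV in all 8 lines. Cxcr4, the receptor for the homing chemokine CXCL12, had 280.1, 489, 445 and 515 CPM with MSCV, 111, 70.4, 69.8 and 100.6 with BCR-ABL1 and 233, 220.1, 294 and 251 with SFPQ-ABL1. MSCV line 1 lay within the SFPQ-ABL1 range, the other MSCV lines above it, and the fall was larger with BCR-ABL1 (adjusted p = 0.000307). The integrin genes Itga4 and Itga5 fell by -1.74 with BCR-ABL1 and -0.84 with SFPQ-ABL1 and by -0.97 and -0.17. Itgal (named after its values were seen) was called higher for either fusion (1.004) although the fusions lay on opposite sides of MSCV (2.57 with BCR-ABL1 and -0.56 with SFPQ-ABL1; adjusted p of the difference 0.000149).

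The B cell receptor signalling chains fell in all 8 fusion lines. Cd79a had 94.8, 98.2, 88.6 and 92.2 CPM with MSCV, 46.9, 49.2, 40.3 and 33.6 with BCR-ABL1 and 48.0, 63.6, 62.9 and 57.8 with SFPQ-ABL1, a fall of 1.88-fold (log2 -0.91 ± 0.10 SE, adjusted p = 0.000284). Cd79b had 52.4, 53.8, 41.6 and 50.7 CPM with MSCV, 24.2, 22.4, 20.1 and 15.4 with BCR-ABL1 and 36.6, 34.8, 31.9 and 34.6 with SFPQ-ABL1 (log2 -0.90 ± 0.11 SE, adjusted p = 0.000379). For both genes the SFPQ-ABL1 group was intermediate, and the fusions differed (adjusted p = 0.0166 and 0.00143). The summed level of the 15 early B markers was 131 to 153 CPM with MSCV, 49.4 to 72.1 with BCR-ABL1 and 85.3 to 98.9 with SFPQ-ABL1, nearly all of it from these 2 genes.

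Markers of other blood lineages were present and moved in part with the groups, and their part in the results above was not tested. Of 8 mast cell and basophil genes 3 fell (37.5%, against 9.68% of all genes). Fcer1g, the signalling chain of Fc receptors, had 10.5 to 17.1 CPM with MSCV, 4.07 to 5.71 with BCR-ABL1 and 7.34 to 9.48 with SFPQ-ABL1 (-1.12 ± 0.14 SE, adjusted p = 0.000381), and Ms4a2 11.5 to 13.9, 4.96 to 7.87 and 8.03 to 10.9. Cma1 had 2.13, 19.03, 2.13 and 3.79 CPM with MSCV and 0.434 to 2.58 in the fusion lines. The summed level of the mast cell list was 1579 to 1909 CPM with MSCV, 1433 to 1801 with BCR-ABL1 and 1302 to 1758 with SFPQ-ABL1, with Gata2 the most abundant member, and Prss34 and Tpsb2 had no count. Of 9 granulocyte and monocyte genes 2 fell (22.2%) and 1 rose (11.1%), against 9.68% and 9.12% of all genes. Ms4a3 fell by -1.36 with BCR-ABL1 and -0.39 with SFPQ-ABL1, Lyz2 by -1.11 and -0.46, and Itgam, at under 3 CPM, rose. The granulocyte and monocyte list summed to 526 to 1207 CPM with MSCV, 245 to 436 with BCR-ABL1 and 586 to 907 with SFPQ-ABL1. In the erythroid and megakaryocyte list, with 11 members tested, Pf4 was called higher (9.09%, against 9.12% of all genes). Epor and Klf1 were called lower (18.2%, against 9.68% of all genes). All 3 had BCR-ABL1 values (5.80, -1.03 and -1.40) that differed from those with SFPQ-ABL1 (-0.094, -0.22 and -0.20). This list summed to 1317 to 2108 CPM, 928 to 1793 and 914 to 2049 in the same order. Of 6 T and NK genes 3 fell (50%, against 9.68% of all genes). They were Tcf7 and Cd3g at under 14 CPM, and Gzmb at 28.5 to 234 CPM with MSCV and 0.850 to 48.2 in the fusion lines. The T and NK list summed to 48.6 to 269 CPM with MSCV, 34.4 to 93.9 with BCR-ABL1 and 12.9 to 66.1 with SFPQ-ABL1. Fibroblast markers summed to at most 1.34 CPM in any line. With the fusion lines as a single group 0 members of the granulocyte and monocyte, erythroid and megakaryocyte, and T and NK lists were called. SFPQ-ABL1 alone gave 2 lower mast cell genes and 1 higher granulocyte and monocyte gene. It gave 0 in the erythroid and megakaryocyte and the T and NK lists, where 0.814% of all genes were higher and 0.977% lower. Single lines decided some of the calls for either fusion. Itgam was not called when any MSCV line, lines 1 or 2 of BCR-ABL1 or lines 1 or 3 of SFPQ-ABL1 were left out, and Lyz2 was not called without MSCV line 4 (-0.68 (adjusted p = 0.0616)). Epor and Klf1 were not called without MSCV lines 2, 3 or 4, nor was Klf1 without lines 2 or 4 of either fusion. Gzmb was not called without lines 1 or 4 of BCR-ABL1, MSCV lines 2 or 4 or lines 3 or 4 of SFPQ-ABL1.

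**Figure D3:**
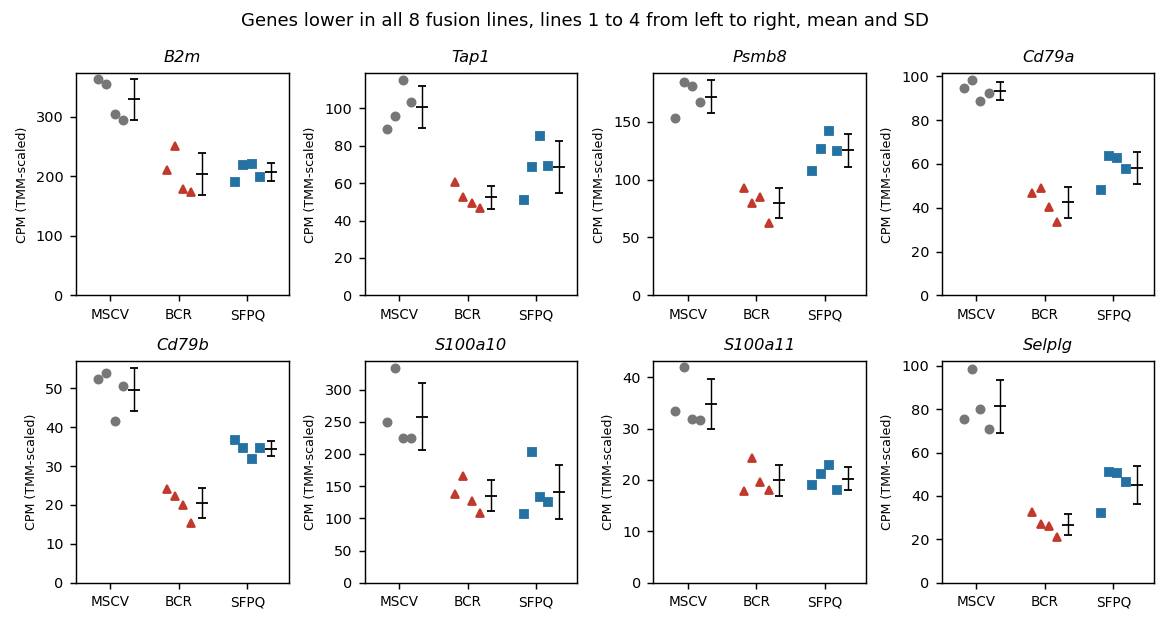
TMM-scaled CPM per line, from 0, for 8 genes of antigen presentation, the B cell receptor, the S100 family and homing that were below MSCV in all 8 fusion lines, with the mean and SD of 4 lines beside each group. The BCR-ABL1 and SFPQ-ABL1 lines sit at the same level for B2m and S100a11, and the SFPQ-ABL1 means lie between the other groups for Psmb8, Cd79b and Selplg.

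**Figure D4:**
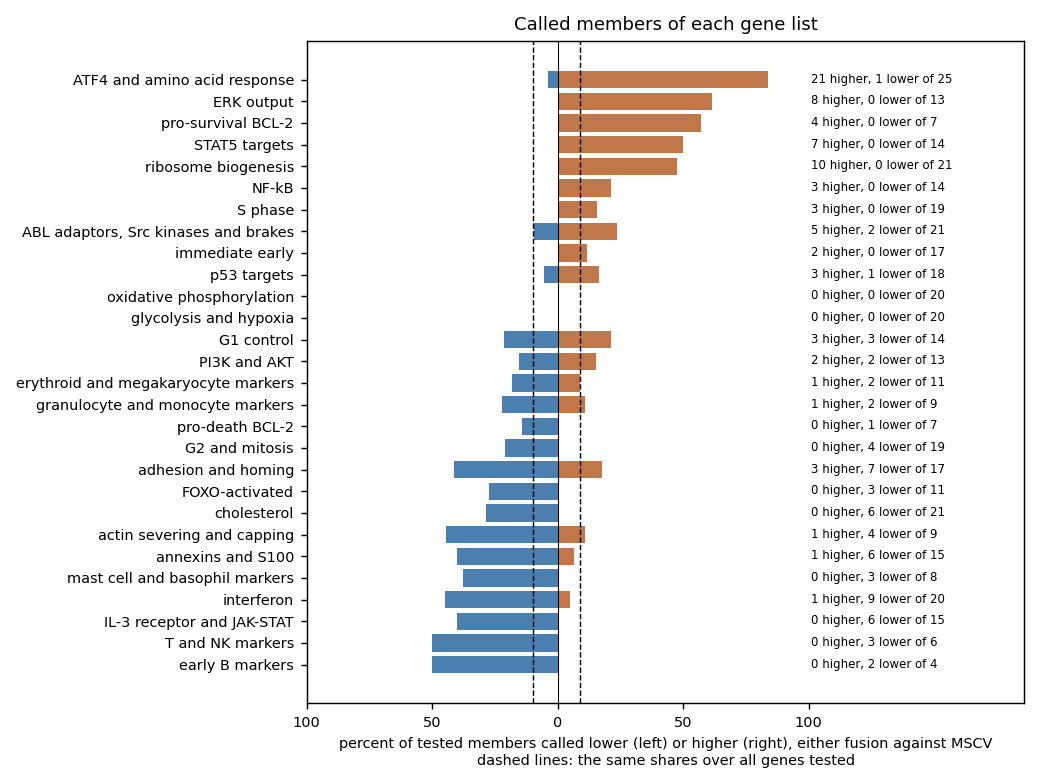
Share of the tested members of each list that were called higher (right) or lower (left) for either fusion against MSCV, with counts beside the bars and dashed lines at 9.12% and 9.68%, the shares over all genes tested. The amino acid response, ERK, pro-survival and STAT5 lists lie furthest to the right, and the early B, T and NK, interferon, actin, adhesion, receptor and S100 lists reach furthest to the left.

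List medians were close to each other under both fusions for some lists and far apart for others. The annexin and S100 list had -0.26 with BCR-ABL1 and -0.27 with SFPQ-ABL1, the interferon list -0.31 and -0.36, and oxidative phosphorylation -0.072 and -0.041. The log2 medians of the ATF4, STAT5 and ERK lists were more than 2 times larger with BCR-ABL1. Medians were of opposite sign for the immediate early, p53, cholesterol, glycolysis, G1, PI3K, and granulocyte and monocyte lists. Both sets of values use the same MSCV lines, and no test was made of a list. Some counts of 0 became 1 when 1 line was left out: the lower STAT5 targets without MSCV line 2, the lower immediate early genes without MSCV line 4 or lines 1 or 3 of BCR-ABL1, the higher cholesterol genes without SFPQ-ABL1 line 2, the lower glycolysis genes without MSCV line 2, the higher pro-death genes without MSCV line 1 or BCR-ABL1 line 2, the higher mast cell genes without BCR-ABL1 line 1, and the higher T and NK genes without SFPQ-ABL1 line 1. Higher oxidative phosphorylation genes numbered 2 without MSCV line 2 and 1 without SFPQ-ABL1 line 4.

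**Figure D5:**
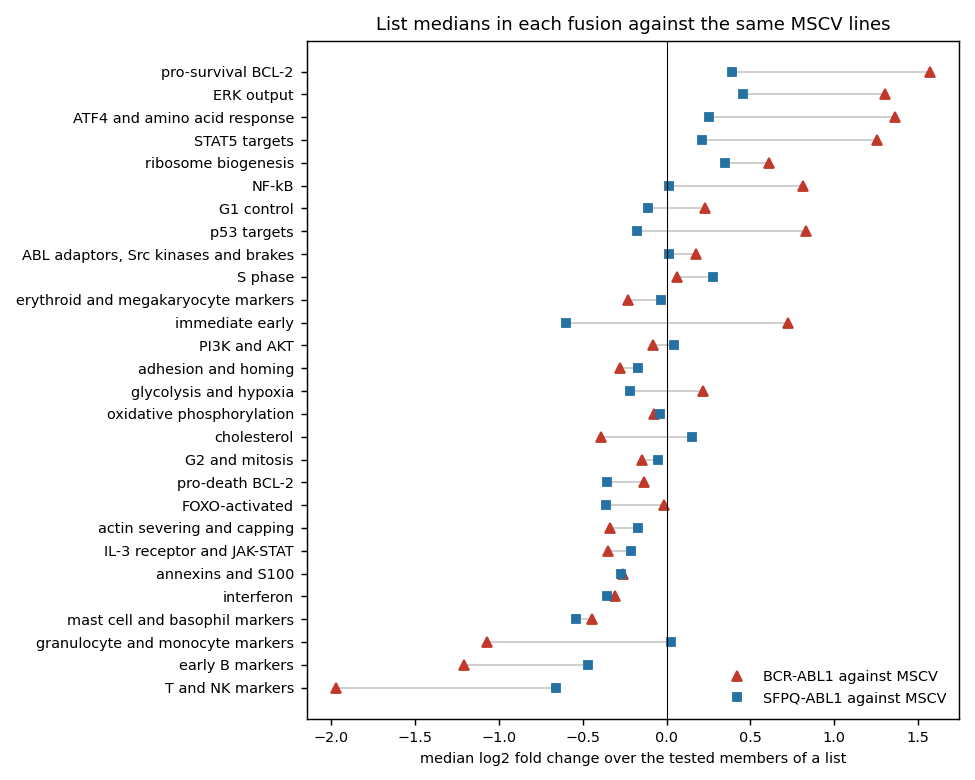
Median log2 fold change over the tested members of each list for BCR-ABL1 (triangles) and SFPQ-ABL1 (squares) against the same MSCV lines, joined by a line. The symbols nearly coincide for the annexin and S100, interferon and oxidative phosphorylation lists and are far apart for the immediate early, T and NK, pro-survival and ATF4 lists.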

How the data were processed

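RNA-seq was measured in 12 libraries, 4 lines each of MSCV, BCR-ABL1 and SFPQ-ABL1. The authors deposited raw counts per gene and per exon on mm10, and the submitters' processing notes name Subread and featureCounts. No version, setting or use of strand is given in the sources used here, so reads of overlapping, antisense and near-identical genes cannot be separated. Exon counts cover a subset of reads and served only as a check of the labels.

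Counts were fitted in R 4.3.3 with edgeR 4.0.16 (filterByExpr, TMM scaling, glmQLFit, glmQLFTest) over all 12 libraries with 1 term per group. Contrasts were the mean of both fusions against MSCV, each fusion alone against MSCV, and the difference between the fusions, with Benjamini-Hochberg adjustment over 17197 genes. Adjusted p values in the text are from this fit and passed at under 0.05, and SE is the absolute log2 fold change over the root of F. The pipeline was tested on simulated counts. Gene levels are TMM-scaled CPM, and exon levels are scaled to the gene total of the library only. Labels call the lines biologically independent, and 18 replicate pairs differed beyond sampling noise (chi-square per degree of freedom 33.1 to 182).

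Named genes are protein-coding, called for either fusion, at 5 CPM or more in a group mean, with all 8 fusion lines on one side of the MSCV lines, ranked by the smaller of the fusion changes (15 per direction), and up to 4 called members of each of 29 lists. The members and lists were chosen with earlier results of these data known. Alternatives were DESeq2 1.42.0 size factors and Wald test, limma 3.58.1 (voom), no normalization factors, other count filters (none, or 1 CPM in 4 libraries), a replicate block, the fusions as a single group, and leaving out lines. Some items are not reported here.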

Additional observations from a re-analysis of the deposited data

Results flagged for a closer look

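In 20 of 360 groups of 4 lines (120 named genes in 3 groups), 1 line lay apart from the other 3 by Dixon's criterion at the 95% level, and chance alone gives about 1 in 20. SFPQ-ABL1 line 4 stood apart for Bcl2a1a at 11.4 CPM (others 0.520 to 2.36). SFPQ-ABL1 line 2 stood apart for Ccnd2 at 193 CPM (others 152 to 155), Ccne2 at 65.4 CPM (others 39.7 to 42.9) and Oosp1 at 145 CPM (others 23.6 to 39.0). MSCV line 2 stood apart for Cma1 at 19.03 CPM (others 2.13 to 3.79), Jak2 at 396 CPM (others 151 to 189), Pim2 at 17.7 CPM (others 13.8 to 14.2), Rbl1 at 63.9 CPM (others 79.4 to 82.2) and S100a11 at 42.0 CPM (others 31.6 to 33.3). MSCV line 1 stood apart for Ddx21 at 286 CPM (others 164 to 182), Dkc1 at 204 CPM (others 123 to 131) and Spred1 at 76.8 CPM (others 65.9 to 67.3). SFPQ-ABL1 line 1 stood apart for Dkc1 at 271 CPM (others 195 to 203). BCR-ABL1 line 1 stood apart for Hemk1 at 72.1 CPM (others 107 to 113) and Ypel3 at 9.73 CPM (others 8.15 to 8.37). BCR-ABL1 line 2 stood apart for Il3ra at 38.1 CPM (others 46.3 to 46.9). BCR-ABL1 line 4 stood apart for Lcn2 at 67.7 CPM (others 4.003 to 14.6), Slco1a5 at 49.0 CPM (others 2.01 to 5.203) and Spred2 at 69.5 CPM (others 84.4 to 85.8). MSCV line 4 stood apart for Pf4 at 0.292 CPM (others 0.0538 to 0.0881).

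The fusions differed from each other, by the adjusted test of SFPQ-ABL1 against BCR-ABL1, for 76 of the 120 named genes. The same test called 26.0% of all genes tested and 55.3% of the genes called for either fusion. Most of the 120 were named because they were called for either fusion, a comparison that the BCR-ABL1 values enter. The values that follow are log2 differences of SFPQ-ABL1 minus BCR-ABL1, where a value below 0 means a lower level with SFPQ-ABL1. Among the shared rises, Lcn2, Dusp4 and Hemk1 had -4.72, -1.74 and -1.07, and Ikzf4 had 0.57. Among the shared falls, Pik3c2g, Col9a3, Lag3, Ypel3, Col5a1, Mfge8 and Tcn2 had 2.24, 2.21, 1.49, 1.10, 1.002, 0.57 and 0.41. Among STAT5 targets and the IL-3 receptor pathway, Pim2, Bcl2l1 and Ccnd2 had -2.14, -1.18 and -1.11, and Stat5b, Il3ra and Tyk2 had 0.39, 0.37 and 0.34. Among ERK output and immediate early genes, Fosl1, Fosl2, Jun, Spred1 and Spred2 had -2.16, -1.63, -1.57, -0.81 and -0.58. Among PI3K, FOXO and BCL-2 family genes, Pik3cg had -0.90, and Pik3ip1, Sesn1 and Inpp5d had 0.82, 0.80 and 0.35. Among ABL adaptors and NF-kB genes, Relb, Rin1, Nfkbiz and Dok2 had -2.29, -2.06, -1.67 and -0.98, and Ptpn6 and Dok3 had 1.57 and 0.55. Among amino acid response and ribosome biogenesis genes, Trib3, Slc7a11, Aars, Nars, Ddx21, Nop58 and Ncl had -3.28, -1.56, -1.40, -1.22, -0.65, -0.57 and -0.42. Among cell cycle genes, Rrm2 and Rbl1 had -1.01 and -0.27, and Cdkn2c, Cenpf, Cdc25c, Cdc20 and Ccnb2 had 0.72, 0.59, 0.42, 0.41 and 0.36. Among cholesterol and p53 genes, Eda2r, Sesn2 and Aen had -2.43, -1.24 and -0.98, and Fdps, Dhcr7, Insig1 and Srebf1 had 1.27, 1.24, 1.23 and 0.82. Among interferon, S100, actin and adhesion genes, Avil and Gsn had -4.71 and -0.61, and Scin, Cxcr4, Itga4, Itga5, Selplg, Psmb8, Psmb9 and Flii had 3.47, 1.51, 0.90, 0.80, 0.75, 0.65, 0.62 and 0.40. Among lineage markers, Pf4 had -5.90, and Tcf7, Cd3g, Klf1, Ms4a3, Epor, Fcer1g, Cd79b, Ms4a2 and Cd79a had 2.81, 1.69, 1.21, 0.97, 0.81, 0.79, 0.75, 0.55 and 0.45. Among the genes of the fusions and those at the threshold, Dbf4 had -0.33, and Adcy7 and Bcr had 0.52 and 0.29.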

How the results depend on the processing

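With the 8 fusion lines as a single group, 206 genes were higher and 290 lower for either fusion, and 12 and 17 list members, since the difference between the fusions then counts as spread. SFPQ-ABL1 against MSCV gave 535 higher and 596 lower genes with the DESeq2 Wald test, 216 higher with no filter on low counts, and 240 and 258 without SFPQ-ABL1 line 2 and BCR-ABL1 line 4 together. Leaving out 1 line at a time gave 896 to 1528 higher and 1020 to 1717 lower genes for either fusion, 13 to 227 and 20 to 240 for SFPQ-ABL1, 427 to 948 genes above and 515 to 855 below MSCV in every remaining fusion line, 2235 to 2741 and 2239 to 2904 for BCR-ABL1, and 1568 to 2560 and 1585 to 2466 for SFPQ-ABL1 against BCR-ABL1. The lowest SFPQ-ABL1 counts (13 and 20) and 896 came without MSCV line 3, and 1020 without MSCV line 4. The cause was not tested. Either fusion gave 2095 and 1999 genes with DESeq2, 1529 and 1632 with limma-voom, and 1693 and 1434 without normalization factors. Of the 30 genes shared by all 8 lines, 25 kept their call with the fusions as a single group. These genes were chosen for lying on one side of MSCV in all 8 lines, which favours a call in that fit. Over all alternatives 2236 of the values of named genes kept direction and call, 198 kept direction but lost the call, and 0 changed sign after being called.

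Of 12 same-number pairs of lines 7 correlated above 0.1 (range -0.006 to 0.385), and 9 of 12 lines correlated best with their own number, a hint from the data and not from the labels. The pairing is therefore unsettled. The replicate block gave 2049 higher and 2060 lower genes for either fusion and 323 and 403 for SFPQ-ABL1. Depth was ample for genes above 1 CPM, and the number of lines limits precision.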

Other observations

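The groups in this section were put together after the values of these genes had been seen, so their counts describe and support nothing further. Of 32 lysosome genes 22 fell (68.8%) and 1 rose (3.12%), against 9.68% and 9.12% of all genes. For 17 all 8 fusion lines were below every MSCV line, which held for 2.87% of all genes. The median log2 change was -0.70 with BCR-ABL1 and -0.44 with SFPQ-ABL1. Cd63, a lysosome and exosome membrane gene, had 215, 217, 192 and 200.4 CPM with MSCV, 135, 125, 127 and 141 with BCR-ABL1 and 125, 121, 141 and 123 with SFPQ-ABL1 (log2 -0.67 ± 0.067 SE, adjusted p = 0.000199). Its fusion groups overlapped each other and lay clear of MSCV. Grn, the progranulin gene, had 552, 472, 467 and 531 CPM with MSCV, 201, 268, 203 and 212 with BCR-ABL1 and 199, 328, 253 and 321 with SFPQ-ABL1 (log2 -1.04 ± 0.13 SE, adjusted p = 0.000381). Npc2, which encodes a lysosomal cholesterol carrier, fell 1.85-fold, and the protease genes Ctsb and Ctsd 1.53-fold and 1.78-fold. Ctsc, a protease gene needed to activate granule proteases, was the 1 that rose, more with SFPQ-ABL1 (0.89) than with BCR-ABL1 (0.24; adjusted p of the difference 0.0192), and it was not called without BCR-ABL1 line 2, MSCV lines 2, 3 or 4 or SFPQ-ABL1 lines 3 or 4. With the 8 fusion lines as a single group 17 members were called lower.

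Of 16 antigen presentation genes 10 fell (62.5%, against 9.68% of all genes). For 9 all 8 fusion lines were below MSCV, which held for 2.87% of all genes, and 4 of the 9 are described in the report. BCR-ABL1 alone gave 2 members higher and 10 lower, and SFPQ-ABL1 alone 0 and 3. Over all genes the shares were 15.8% and 16.3% with BCR-ABL1, and 0.814% and 0.977% with SFPQ-ABL1. The class II loading genes H2-DMa and H2-DMb1 had 19.5 to 24.5 and 28.6 to 33.0 CPM with MSCV and 5.03 to 15.3 and 13.6 to 19.8 in the fusion lines. The class I gene H2-D1 had 143, 166, 121 and 118 CPM with MSCV, 72.2, 88.4, 64.4 and 66.8 with BCR-ABL1 and 59.7, 102, 87.3 and 90.4 with SFPQ-ABL1 (log2 -0.80 ± 0.14 SE, adjusted p = 0.00236), though reads of class I genes can be shared between near copies. Tap2 and Tapbp, which act in peptide loading, fell further with BCR-ABL1 (-1.29 and -1.32) than with SFPQ-ABL1 (-0.59 and -0.65).

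Of 22 genes of protein folding and stress in the endoplasmic reticulum 7 rose (31.8%) and 1 fell (4.55%), against 9.12% and 9.68% of all genes. With the fusion lines as a single group 1 rose and 0 fell. For 5 all 8 fusion lines were above MSCV, which held for 2.40% of all genes. Hyou1, a chaperone gene, had 219, 190.4, 144 and 160.4 CPM with MSCV, 278, 349, 283 and 302 with BCR-ABL1 and 292, 282, 241 and 275 with SFPQ-ABL1 (log2 0.69 ± 0.11 SE, adjusted p = 0.00192). Xbp1, a transcription factor gene of the unfolded protein response, had 329, 302, 269 and 317 CPM with MSCV, 388, 497, 411 and 529 with BCR-ABL1 and 527, 349.8, 611 and 806 with SFPQ-ABL1. Calr, the calreticulin gene, was the 1 that fell, with -0.82 under BCR-ABL1 and -0.094 under SFPQ-ABL1 (adjusted p of the difference 0.00117). The 7 were 3 without MSCV line 3, and the 1 was 2 without line 2 of either fusion.

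Of 17 polyamine genes 4 rose (23.5%) and 2 fell (11.8%), against 9.12% and 9.68% of all genes. With the fusion lines as a single group 2 rose and 0 fell. Amd2, a retained copy of the S-adenosylmethionine decarboxylase gene that can share reads with Amd1, was above MSCV in all 8 lines (7.503 to 12.4 CPM with MSCV, 13.02 to 18.2 in the fusion lines), as were Odc1 and Atp13a3. Azin1, which encodes an inhibitor of antizyme, rose with BCR-ABL1 (1.16 with BCR-ABL1 and 0.17 with SFPQ-ABL1), and the antizyme genes Oaz1 and Oaz2 had -0.47 and -0.55 with BCR-ABL1 and -0.12 and -0.086 with SFPQ-ABL1. The 2 that fell were 1 without MSCV lines 2 or 4, lines 2 or 4 of BCR-ABL1 or lines 3 or 4 of SFPQ-ABL1.

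Among the 30 genes shared by all fusion lines were neighbours on the same chromosome that moved the same way. Cish and Hemk1 lie on chromosome 9 (starts 107296026 and 107327084) and both rose, and Svs2 and Slpi lie on chromosome 2 (starts 164235929 and 164354070) and both fell.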
